A study of Danio rerio with 32 samples.

Results

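The proteasome genes of zebrafish were followed over a concentration range of retene, an alkylated polycyclic aromatic hydrocarbon. A gene was taken when its RefSeq symbol began with psm, a letter from a to g and a number, which is how vertebrate proteasome subunits and their partners are named. RefSeq lists 59 such zebrafish symbols, and 51 of them were among the 22686 genes of the normalized expression table. The other 8 (psma5, psmb8a, psmb11a, psmb11b, psmb13a, psmd10, psme1 and psme3) were not analysed here.

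The proteasome degrades proteins that carry chains of ubiquitin and is used by every cell. Its core particle is a barrel of stacked rings, in which the outer rings of alpha subunits (psma genes) form the gate and the inner rings of beta subunits (psmb genes) hold the catalytic sites. A regulatory particle caps the barrel: its ATPases (psmc genes) unfold the substrate, and its other subunits (psmd genes) bind ubiquitin chains and remove them. Other activators (psme genes) can replace this cap, psmf1 encodes an inhibitor, and the psmg genes encode chaperones that assemble the rings. In mammals, genes of the particle are transcribed together under the factor Nrf1 (nfe2l1) when proteasome activity is short.

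The 51 genes comprised 9 of the alpha ring, 10 of the beta ring, 7 ATPases, 15 numbered as non-ATPase subunits, 3 activators, 1 inhibitor and 4 assembly chaperones. The remaining 2, psmc3ip and psme3ip1, encode partner proteins that are named after a subunit and are not subunits themselves, so summed levels are given for the other 49. Among the genes numbered as non-ATPase subunits, psmd5 and psmd9 are known in mammals as chaperones that assemble the base of the cap.

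Tropical 5D zebrafish were used in all groups. Embryos without chorion were exposed by immersion, in sealed wells, to DMSO alone (the control) or to retene in DMSO, beginning on the first day of development. At 48 h post-fertilization, fish that looked normal were collected whole, in pools of 9 fish, and their mRNA was sequenced, with 4 pools in each of the 8 groups. Retene was given at 50 µM and, in falling order, at 20, 8, 3.2, 1.28, 0.512 and 0.205 µM. The choice of normal-looking fish limits every group to larvae without visible malformation, and each value is an average over all tissues of the larvae. In such material, fewer cells of a type and less RNA per cell cannot be told apart.

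The pools held 7720701 to 8656870 reads on genes (median 8169016). Cyp1a, the enzyme induced by ligands of the aryl hydrocarbon receptor, had a Log2FC of 7.57 at 50 µM (adjusted p-value = 5.78e-22) and was called at each concentration from 1.28 µM upward. Markers of muscle (actc1b), lens (crybb1), skin (krt4), red cells (hbae3), neurons (elavl3) and liver (tfa) were all well measured, with mean normalized counts from 3960.3 (tfa) to 215844 (actc1b), while the muscle marker ckma (2.49) and the liver marker fabp10a (18.2) had few reads. Some of these markers differed from the control. Krt4 fell at 50 µM (Log2FC -0.33, adjusted p-value = 0.00363) and in the trend (adjusted p-value = 0.00591). Elavl3 was lower at 1.28 µM (Log2FC -0.29, adjusted p-value = 0.0339), but its Log2FC was -0.06 at 50 µM and it was not called in the trend. The other skin marker, krt5, went the other way, with a Log2FC of 0.14 at 50 µM, and was not called. Among the markers of neurons, gap43 rose in the trend (adjusted p-value = 0.0149). The part of these tissues in the proteasome values was not tested. Over all genes, 8 µM replicate 4, control replicate 2, 50 µM replicate 4 and 50 µM replicate 2 lay farthest from their group means, with a root mean square deviation of 0.19, 0.17, 0.16 and 0.15 log2 units against 0.094 to 0.13 in the other 28 pools. Control replicate 2, 8 µM replicate 4 and 50 µM replicate 2 were left out together, a set taken from earlier results of these data, and each pool was left out in turn. The labels name no plate, clutch or sequencing batch, and nothing says whether the pools came from separate exposures, so the p-values measure the spread between these pools.

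Levels are given as normalized counts, which are reads divided by the size factor of the pool. Log2FC is the difference of group means on the deposited scale. It approximates a log2 ratio where reads are plentiful and understates the ratio where they are scarce. A gene was called a differentially expressed gene (DEG) at an adjusted p-value under 0.05 in limma, fitted to all 22686 genes and 32 pools. Of the 51 proteasome genes, 43 had a mean normalized count above 100. Psma6l (12.1) and psmb10 (37.9) were measured with few reads, and psmb9a (2.03) and psmb12 (2.42) were at the limit of detection, with pools at 0. Gene lengths were not used here, so levels are not compared between genes.

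Over the range of retene, the median Log2FC of the 51 proteasome genes lay between -0.02 (20 µM) and 0.09 (8 µM). At 50 µM, 1 of the 51 genes was called, psmc2, which rose by 21.2%, and none was called lower. Among all genes, 2.48% were called at 50 µM while 1.45% were called higher and 1.02% lower. The median Log2FC of the 51 genes was 0.07 at 50 µM against 0.00 for all genes. Of the 51, 42 (82.4%) lay above 0, against 51.2% of all genes. At an unadjusted p under 0.05, 10 of the 51 were higher and 0 lower, where 7.45% of all genes were higher and 7.72% lower.

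At the 6 lower concentrations, limma called 0 of the 51 genes in either direction, and limma-voom on the recovered reads also called 0. At 50 µM limma-voom called 1, again psmc2. All-gene shares were 0.0% at 0.205 and 0.512 µM, 0.0838% at 1.28 and at 3.2 µM, 0.344% at 8 µM and 0.586% at 20 µM, so limma made few calls of any kind there. Limma-voom called 0%, 0%, 0.0661%, 0.0749%, 0.353% and 0.564% of all genes. The authors tested with DESeq2 and reported more genes than limma called here at each concentration from 0.512 µM upward. The counts of 0 therefore belong to these fits. At an unadjusted p under 0.05, the proteasome genes higher than the control numbered 5, 3, 12, 11, 11 and 3 from 0.205 to 20 µM, and those lower numbered 1, 0, 1, 0, 1 and 2. The corresponding shares of all genes were 3.02%, 2.94%, 5.79%, 4.84%, 5.46% and 4.97% higher and 4.41%, 3.38%, 7.18%, 4.88%, 4.49% and 6.0% lower. The median Log2FC of the 51 genes was 0.07 at 0.205 µM, 0.06 at 0.512 µM, 0.08 at 1.28 and 3.2 µM and 0.09 at 8 µM, and it was -0.02 at 20 µM, with all-gene medians within 0.01 of 0. These 7 comparisons share the same 4 control pools, and a low or high control pool moves all of them together. Without control replicate 2, the medians from 0.205 to 3.2 µM lay between 0.02 and 0.04, and those at 8, 20 and 50 µM were 0.05, -0.06 and 0.04. Without 0.205 µM replicate 3, the median at 0.205 µM was 0.02. Without control replicate 4, the medians at 0.512 and 50 µM were 0.09 and 0.11, and without control replicate 3 the median at 3.2 µM was 0.11.

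The precision of the pools bounds these differences. The standard error of a Log2FC among the 51 genes ran from 0.058 to 0.10, with a median of 0.072. At every concentration, the 95% interval of each of the 51 genes lay within 0.5 of 0 on the deposited log2 scale. At 50 µM the intervals spanned -0.30 (psme4a) to 0.38 (psmc2). The deposited scale compresses ratios, most for the genes with few reads named above and also for genes of middling level. Psme2 (mean normalized count 111) changed by 27.2% at 1.28 µM with a Log2FC of 0.20. Psmg4 (123) changed by -20.8% at 20 µM with a Log2FC of -0.20. For all such genes the intervals do not bound a fold.

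**Figure D1:**
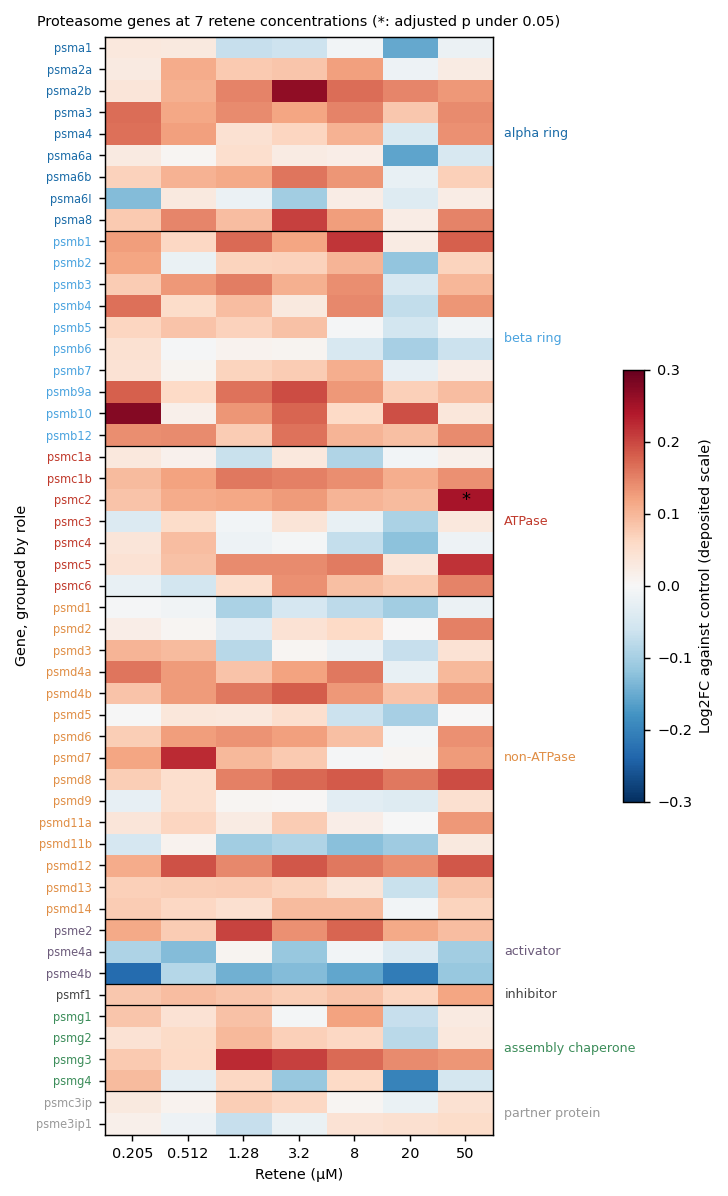
Log2FC of the 51 proteasome genes (rows, grouped by role and colored by it) against the control at 7 retene concentrations (columns), with red for higher, blue for lower and a star for an adjusted p-value under 0.05. The star stands on psmc2 at 50 µM. Pale red covers most rows from 0.205 to 8 µM and at 50 µM, the 20 µM column is paler or blue, and psme4b is blue throughout.

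The level of the listed genes was summarized per pool as the mean deviation of the 49 genes without the partner proteins, in log2 units. This mean includes the activators, the inhibitor and the assembly chaperones. The control pools lay at -0.087, -0.15, 0.028 and 0.013, and the 50 µM pools at 0.041, 0.017, 0.056 and -0.013. Control replicates 1 and 2 were low, and replicates 3 and 4 lay within the range of the 50 µM pools. The 20 µM pools lay at -0.11, -0.010, -0.014 and -0.10, which placed 2 of them with the low control pools. Group means of the other concentrations lay between 0.012 and 0.025.

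The same summary for 77 cytosolic ribosomal protein genes and 7 genes of the CCT chaperonin, which folds actin and tubulin, is plotted beside it. Ribosomal protein genes had a median Log2FC of 0.19 at 1.28 µM, 0.16 at 8 µM and 0.06 at 50 µM, and control replicate 2 was the lowest of all pools for them at -0.27. At 50 µM, 62 of the 77 (80.5%) lay above 0, a share near that of the proteasome genes. At an unadjusted p under 0.05 in limma, 13 of the 77 were higher and 0 lower. The difference between the proteasome and the ribosomal mean was 0.053 ± 0.071 (SD, n = 4) in the control and 0.054 ± 0.041 (SD, n = 4) at 50 µM. It lay between -0.052 and 0.037 at the other concentrations. The chaperonin genes had a median Log2FC of 0.05 at 1.28 µM, 0.06 at 8 µM and -0.00065 at 50 µM. At 50 µM, 3 of the 7 lay above 0. Their mean deviation was -0.041 ± 0.095 (SD, n = 4) in the control and -0.043 ± 0.059 at 50 µM. That of the proteasome genes was -0.049 ± 0.084 in the control and 0.025 ± 0.030 at 50 µM. A difference between the proteasome and the chaperonin was not tested.

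**Figure D2:**
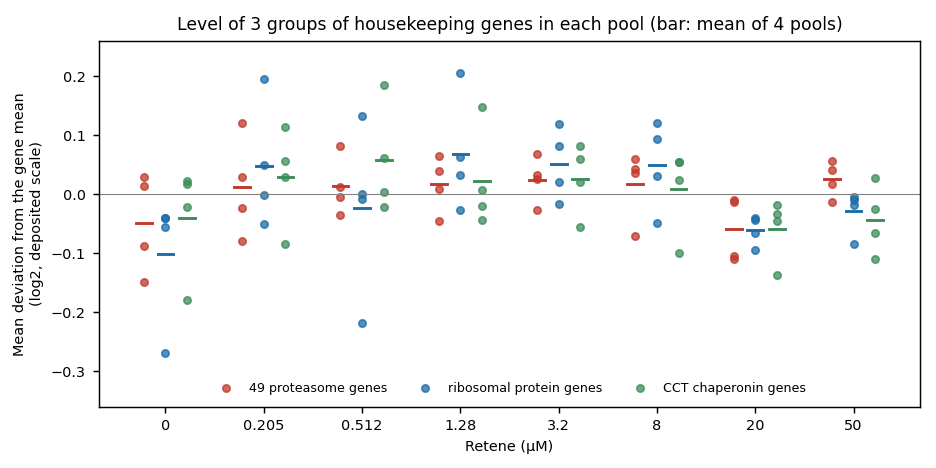
Mean deviation from each gene's mean over 32 pools (log2, deposited scale, vertical) for 49 proteasome, 77 ribosomal protein and 7 CCT chaperonin genes in each pool, against retene in µM (horizontal). Points are pools and bars are means of 4 pools. Control replicate 2 is low for all 3 groups of genes, and the proteasome points of the control and of 50 µM overlap.

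In the alpha ring, 0 of the 9 genes were called at any concentration. Among all genes at most 2.48% were called, at 50 µM, so a count of 0 among 9 is near that share. Psma3, an alpha ring subunit and the gene of that ring with the smallest p at 50 µM, had normalized counts of 645, 634, 657 and 652 in the control pools and of 757, 688, 722 and 729 in the 50 µM pools. The exposed pools all exceeded the highest control pool, and the mean was 11.9% higher (Log2FC 0.14, SE 0.064, adjusted p-value = 0.285; two-sided exact permutation p = 0.0286, the smallest that 4 pools against 4 allow). Psma3 also separated from the control in this way at 0.205, 1.28 and 3.2 µM, against the same tight control pools. The other alpha ring genes had a Log2FC at 50 µM from -0.05 (psma6a) to 0.15 (psma8).

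Psma2b, which encodes 1 of 2 copies of a further alpha ring subunit, came nearest to a call below 50 µM. Its normalized counts were 312, 268, 360.2 and 319.7 in the control and 401, 362, 401 and 421 at 3.2 µM, where the groups did not overlap. The mean was 25.9% higher, with a Log2FC of 0.27 and an adjusted p-value of 0.0982. When p-values were adjusted over all 7 concentrations together, or without control replicate 3, psma2b was called at 3.2 µM.

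In the beta ring, the genes of the catalytic sites of every cell did not separate from the control. Psmb5, the chymotrypsin-like subunit, had normalized counts of 742, 644, 839 and 776 in the control and of 778, 739, 736 and 710.1 at 50 µM, where every value lay inside the range of the control (Log2FC -0.01, SE 0.074, adjusted p-value = 0.962). Psmb6, the caspase-like subunit, had 469, 491, 545 and 528 in the control and 516, 475, 472 and 464 at 50 µM. The groups overlapped, with 1 exposed pool just below the lowest control pool and the others inside the control range (Log2FC -0.06, adjusted p-value = 0.757). Psmb7, the trypsin-like subunit, had 1131, 1062, 1248 and 1159 in the control and 1163, 1166, 1116 and 1219.6 at 50 µM. These values also lay inside the control range (Log2FC 0.02, adjusted p-value = 0.929), and the sign of so small a difference turned when single pools were left out.

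The inducible catalytic subunits, which replace the constitutive ones in immune cells of mammals, were measured with few reads. Psmb10, the inducible counterpart of psmb7, had normalized counts of 32.5, 22.9, 22.6 and 45.4 in the control and 23.0, 35.7, 47.6 and 25.3 at 50 µM, with full overlap (adjusted p-value = 0.918). Psmb9a, the inducible counterpart of psmb6, had 0, 0, 3.76 and 0.987 in the control and 1.00, 1.93, 1.98 and 1.01 at 50 µM. Psmb12, a beta subunit gene that fish carry with the genes of the major histocompatibility complex, had 0.986, 0, 0.940 and 1.97 in the control and 2.00, 5.78, 1.98 and 1.01 at 50 µM. For these last genes, a change was not detectable at this depth, and no fold is given.

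Markers of leukocytes, the cells in which inducible subunits are best known, were read beside them. Mpx, the myeloperoxidase of neutrophils, fell at 50 µM (Log2FC -0.47, adjusted p-value = 0.000561), and lyz had a Log2FC of -0.40 (adjusted p-value = 0.157), ptprc of -0.06 and lcp1 of -0.11. These were the 4 of 6 listed leukocyte markers that were in the table. Their part in the values of psmb9a, psmb10 and psmb12 was not tested. Of 10 genes of antigen processing and its regulation, such as the peptide transporter tap1 and the light chain b2m, limma called 0 at 50 µM. An unadjusted p under 0.05 was held by 1 of them. Among all genes, 2.48% were called and 15.2% had such a p. The smallest adjusted p-value was 0.0642 for stat1a, an interferon signaling factor (Log2FC -0.33). In the trend, 0 of the 10 were called, against 4.95% of all genes. There, 1 rose and 3 fell at an unadjusted p under 0.05, where 8.28% and 8.43% of all genes did.

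Psmb1, a non-catalytic beta ring subunit, had the smallest p of the ring at 50 µM. It had normalized counts of 912, 809.8, 1063 and 876 in the control and 1050.3, 1102, 947 and 1087 at 50 µM. The groups overlapped through control replicate 3, and the mean was 14.4% higher (Log2FC 0.18, SE 0.080, adjusted p-value = 0.275, exact permutation p = 0.0857). The other beta ring genes psmb2, psmb3 and psmb4 had a Log2FC from 0.07 to 0.13.

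The ATPases of the cap held the single call. Psmc2 (GeneID 393941), which encodes the ATPase known as Rpt1 in yeast, had normalized counts of 726, 655, 753 and 740.0 in the control pools and of 899.9, 847, 860.5 and 876 in the 50 µM pools. The groups were separated, with the lowest 50 µM pool above the highest control pool. Psmc2 rose by 21.2% at 50 µM (Log2FC 0.25, SE 0.067, adjusted p-value = 0.0403, two-sided exact permutation p = 0.0286). Its group means were 719 ± 43.6 in the control and 771, 785, 786, 794, 779.5, 774 and 871 ± 22.9 from 0.205 to 50 µM (SD, n = 4). Between neighboring groups, the means differed most from 20 to 50 µM, and the slope over the 8 ordered groups was not called (adjusted p-value = 0.0970).

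The call on psmc2 stood close to the threshold. Leaving out a single pool gave a Log2FC from 0.21 to 0.27, and the adjusted p-value rose to 0.165 without control replicate 2 and to 0.120 without 50 µM replicate 1. It also passed 0.05 without control replicate 1 (0.0771) or 4 (0.0540) and without 50 µM replicate 3 (0.0789) or 4 (0.0949). Without the set of 3 outlying pools, the Log2FC was 0.22 and the adjusted p-value 0.103.

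Psmc5, the ATPase known as Rpt6, followed psmc2. Its normalized counts were 763, 728, 811 and 751 in the control and 936, 849, 920.0 and 906 at 50 µM, again without overlap. The mean was 18.3% higher, and the adjusted p-value missed the threshold (Log2FC 0.22, SE 0.063, adjusted p-value = 0.0578, exact permutation p = 0.0286). Psmc1b and psmc6 had a Log2FC of 0.14 and 0.15 at 50 µM, while psmc1a, psmc3 and psmc4 had 0.02, 0.03 and -0.02. The median over the 7 ATPases was 0.14, the highest of any role with more than 1 gene.

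Among the non-ATPase subunits of the cap, psmd8 was called in the trend. Psmd8 (GeneID 415221) encodes the lid subunit known as Rpn12 in yeast. Its normalized counts were 822, 809, 928 and 898 in the control and 1016, 972, 1073 and 952 at 50 µM, without overlap. At 50 µM the mean was 16.1% higher (Log2FC 0.20, SE 0.068, adjusted p-value = 0.134, exact permutation p = 0.0286). Group means were 864 in the control and 916, 901, 971, 985, 996, 976 and 1003 from 0.205 to 50 µM. Psmd8 rose along the range, by 0.026 log2 units per concentration step (SE 0.0072, adjusted p-value = 0.0222), and most of the rise was reached by 1.28 µM.

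In the trend over the 8 groups, 4.95% of all genes were called with 2.61% rising and 2.34% falling, against 1 of the 51 proteasome genes rising and 0 falling. The median slope of the 49 genes without the partner proteins was 0.00, and 27 of the 49 (55.1%) were positive, against 50.6% of all genes. At an unadjusted p under 0.05, 7 of the 51 had a rising and 2 a falling slope, against 8.28% and 8.43% of all genes. The call on psmd8 was lost without control replicate 1 (adjusted p-value = 0.0537), control replicate 2 (0.0505) or 50 µM replicate 3 (0.0516).

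Psmd12, the lid subunit known as Rpn5, had the smallest p of the non-ATPase genes at 50 µM. The pools held 519.5, 497, 541 and 618 normalized counts in the control and 664, 595, 671 and 595 at 50 µM. Control replicate 4 reached into the 50 µM range, and the other 3 control pools lay below it (16.1% higher, Log2FC 0.19, SE 0.061, adjusted p-value = 0.109, exact permutation p = 0.0857). Without control replicate 4, psmd12 was called, with an adjusted p-value of 0.0323. The remaining non-ATPase genes ran from a Log2FC of -0.02 (psmd1, a scaffold of the base) to 0.15 (psmd2, the other scaffold). Psmd14, the enzyme that cuts the ubiquitin chain off the substrate, had 0.07, and the ubiquitin receptor genes psmd4a and psmd4b had 0.10 and 0.13.

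**Figure D3:**
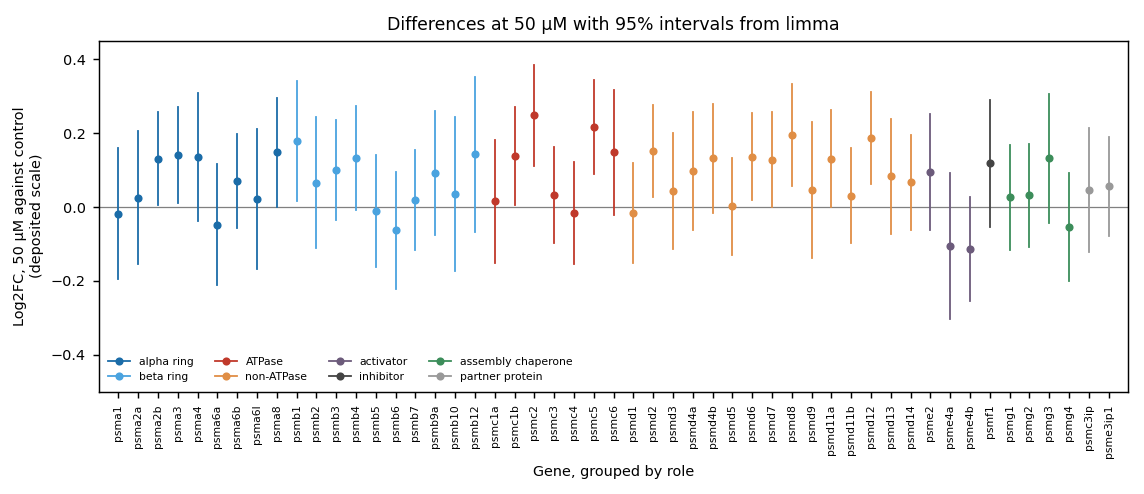
Log2FC at 50 µM against the control (vertical, deposited log2 scale) with 95% intervals from limma for each of the 51 genes (horizontal, grouped and colored by role). All intervals lie between -0.30 and 0.38, and the points of the ATPases and non-ATPase subunits lie mostly above 0 while those of psme4a and psme4b lie below.

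At 50 µM, 4 of the 51 genes, psma3, psmc2, psmc5 and psmd8, had all exposed pools above all control pools, and none had all exposed pools below. Among all genes, 4.13% lay wholly above and 3.02% wholly below. At 20 µM, 0 of the 51 lay wholly above, where 3.79% of all genes did, and 2 lay wholly below, psme4b and psmg4, where 3.6% of all genes did. At 8 µM, no proteasome gene was separated in either direction, against 2.83% of all genes above and 1.84% below. At 0.205, 0.512, 1.28 and 3.2 µM, 1, 1, 4 and 3 genes lay wholly above, against 2.13%, 1.67%, 3.33% and 2.77% of all genes. Psme4b lay wholly below at 0.205 µM, and no proteasome gene did so at 0.512, 1.28 or 3.2 µM, against 2.6%, 1.83%, 3.65% and 2.59% of all genes.

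The cap and the core were compared within each pool. The mean deviation of the 20 cap genes minus that of the 19 core genes was 0.0074 ± 0.040 (SD, n = 4) in the control and 0.046 ± 0.026 (SD, n = 4) at 50 µM. The 50 µM pools ran from 0.021 to 0.077 and the control pools from -0.036 to 0.048, so the groups overlapped. At the other concentrations the group means lay between -0.036 and 0.024. The core genes included psma6l, psmb9a, psmb10 and psmb12, which had few reads, and the cap genes included none so scarce. The cap mean left out adrm1 and sem1, cap subunits that the naming rule does not take and that are described below. Their Log2FC at 50 µM was 0.41 and 0.31.

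Both copies of psme4 had a Log2FC below 0 at most concentrations, which for psme4a leaned on control replicate 2. Psme4b, a copy of the gene for the activator PA200 of mammals, had normalized counts of 332, 367, 340.4 and 322 in the control and of 289, 361, 328 and 259 at 50 µM, where the groups overlapped (Log2FC -0.11, adjusted p-value = 0.454, exact permutation p = 0.257). At 20 µM its counts were 272, 273, 279 and 303, all below the control pools. Its group means were 340.3 ± 19.3 in the control and 277, 316, 299, 303, 297, 282 and 309 from 0.205 to 50 µM, below the control at all 7 concentrations, and the smallest adjusted p-value was 0.203, at 20 µM. Its copy psme4a had a Log2FC of -0.11 at 50 µM, with 1.28 µM as the only concentration above 0. Psme2, a subunit of the interferon-inducible activator of mammals, had a Log2FC above 0 at all 7 concentrations, with 0.09 at 50 µM and 0.20 at 1.28 µM, where its pools lay wholly above the control (adjusted p-value = 0.278).

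The inhibitor gene psmf1 had normalized counts of 112, 87.6, 137 and 157 in the control and of 150.3, 136, 133 and 137 at 50 µM, with overlap (Log2FC 0.12, adjusted p-value = 0.542). Psmg3, an assembly chaperone of the alpha ring, had 80.8, 71.4, 79.0 and 99.7 in the control and 119, 79.1, 117 and 79.0 at 50 µM. Of the exposed pools, 2 lay above the control range and 2 inside it (Log2FC 0.13, adjusted p-value = 0.499). The other assembly chaperone genes psmg1, psmg2 and psmg4 had a Log2FC of 0.03, 0.03 and -0.05, and the partner genes psmc3ip and psme3ip1 of 0.05 and 0.06.

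**Figure D4:**
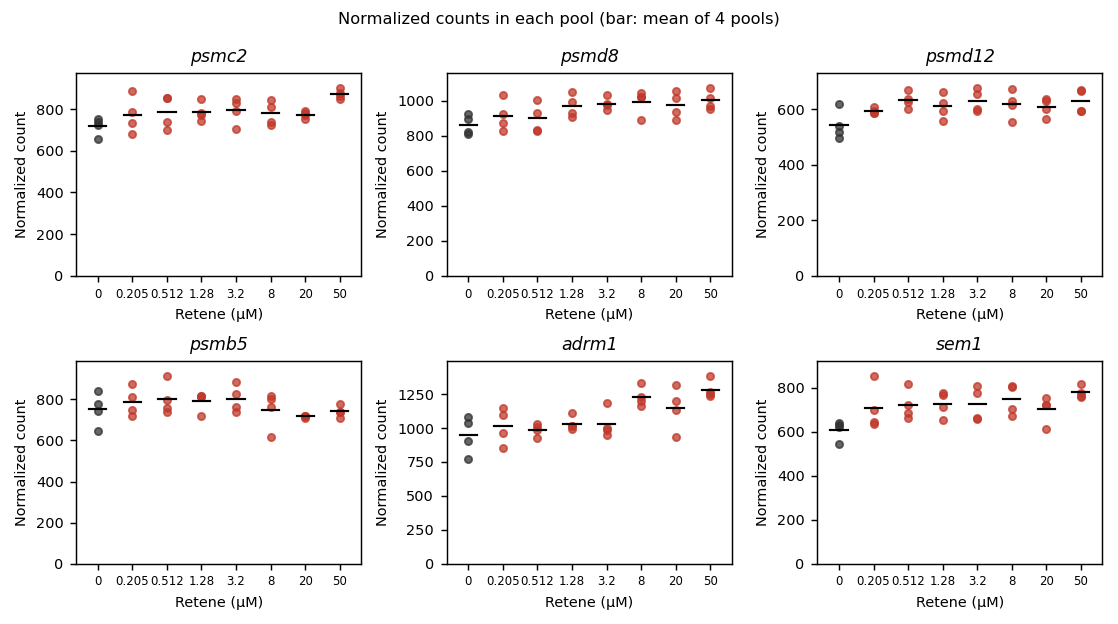
Normalized counts (vertical, from 0) of psmc2, psmd8, psmd12, psmb5, adrm1 and sem1 in each pool against retene in µM (horizontal, 0 is the control). Points are pools and bars are means of 4 pools. Psmb5 is flat, with 778, 739, 736 and 710.1 at 50 µM inside the control range, while psmc2, psmd8, adrm1 and sem1 at 50 µM lie above all control pools.

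Since the comparisons above share the control, 50 µM was also set against 20 µM, a comparison that was added after the data had been examined. Among all genes 12 (0.0529%) were called and 0 of the 51 proteasome genes were, with a smallest adjusted p-value of 0.971 among them. The median Log2FC of the 51 genes was 0.09, 46 of them were higher at 50 µM, and 10 had an unadjusted p under 0.05, all higher. Over all genes the median was 0.00, 52.2% were higher at 50 µM, and 2.49% had an unadjusted p under 0.05 and were higher. The 51 genes vary together between pools, as described next, so these counts are not 51 separate observations. Of the 8 groups, 20 µM also had the lowest mean deviation of the proteasome genes without partner proteins, at -0.060 log2 units. That mean was -0.049 in the control and 0.025 at 50 µM. Set against the lowest group, the counts do not tell a rise at 50 µM from a low level at 20 µM.

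The proteasome genes varied together from pool to pool within a group. With group means removed, the correlation of a gene with the mean of the others was computed over the 32 pools, which share their depth and size factor within a pool. The median r was 0.68 over the 49 genes without partner proteins, and 35 of the 49 exceeded 0.5. Among all genes the median r with the same mean was -0.02 and 7.37% exceeded 0.5. The genes of this background were not matched for reads: their median normalized count was 58.5, below most proteasome genes. Psmd8 (0.87), psmb2 (0.84) and psmd13 (0.84) were highest, and the mean of the core correlated with the mean of the cap at 0.91. Without the set of 3 outlying pools, the median was 0.64 and 34 of the 49 exceeded 0.5.

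This shared variation was not confined to the proteasome. The proteasome mean correlated at 0.79 with the mean of the ribosomal protein genes and at 0.86 with that of the chaperonin genes over the same pools. The genes outside the list nearest to the proteasome mean were atp5mc3b (0.88), a subunit of the mitochondrial ATP synthase, ilf2 (0.88), h3f3a (0.88), ranbp1 (0.87) and rnps1 (0.87), a splicing factor.

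A few members stood outside. Psme4a (-0.40) and psme4b (-0.14) ran against the mean, with values of -0.07 for psme4a and 0.17 for psme4b without those 3 pools. Psmb12, psmb9a, psma6l and psmb10, the genes with the fewest reads, lay between -0.02 and 0.11, and among well-measured subunits psmc6 was lowest at 0.16.

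**Figure D5:**
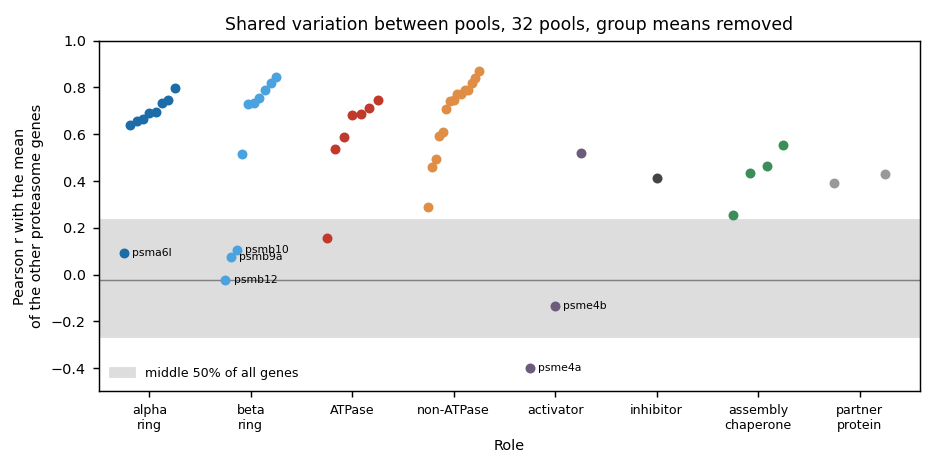
Pearson r of each proteasome gene with the mean of the other proteasome genes (vertical) over 32 pools with group means removed, grouped by role (horizontal); the gray band is the middle 50% of all genes, from -0.27 to 0.23. Most ring and cap genes lie above 0.5, and psme4a, psme4b and the genes with few reads lie in or below the band.

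Zebrafish keep duplicate copies, named a and b, of 6 of these genes, and both copies of psma2, psma6, psmc1, psmd4, psmd11 and psme4 were measured. Copy a minus copy b was taken within each pool on the deposited scale. This difference changed from the control to 50 µM by -0.11 for psma2, -0.12 for psma6 and -0.12 for psmc1. For psmd4, psmd11 and psme4 it changed by -0.04, 0.10 and 0.01. The scale compresses the copy with fewer reads more, so these values are not log2 ratios. Over these 6 pairs the two-sided exact permutation p lay between 0.114 and 0.943 and the adjusted values between 0.457 and 0.943. The smallest exact p that 4 pools against 4 allow is 0.0286. After adjustment over the 6 pairs, a shift in 1 pair alone could therefore not reach an adjusted value under 0.05. A shift between copies was not detectable with 4 pools a group. The authors counted with HTSeq at default settings, under which reads that align equally well to several places are not counted, so the copies' levels rest on the reads that tell them apart and their split is uncertain.

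Adrm1 and sem1 encode subunits of the cap whose symbols the naming rule does not take, and both were called at 50 µM. Adrm1, the ubiquitin receptor known as Rpn13, had normalized counts of 904, 772, 1082 and 1035 in the control and of 1238, 1262, 1251 and 1382 at 50 µM, without overlap. It rose by 35.3% (Log2FC 0.41, SE 0.088, adjusted p-value = 0.00583, exact permutation p = 0.0286), and it rose in the trend, by 0.054 log2 units per step. Its group means were 948, 1013, 987, 1033, 1030.1, 1229.6, 1145 and 1283 from the control to 50 µM. Without control replicate 2, its Log2FC at 50 µM was 0.32 and the adjusted p-value 0.0528. With only the 2 groups compared in limma, the adjusted p-value was 0.0658.

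Sem1, the small lid subunit known as Dss1, had 643, 544, 632 and 625 in the control and 819, 766, 758 and 775 at 50 µM, also without overlap. It rose by 27.6% (Log2FC 0.31, SE 0.079, adjusted p-value = 0.0263). Its call was lost without control replicate 2 (adjusted p-value = 0.125) and without 50 µM replicate 1 (0.0969), 3 (0.0519) or 4 (0.0598). It was also lost with only the 2 groups compared (0.0520), with adjustment over all 7 concentrations (0.0855) and without the set of 3 outlying pools (0.0797).

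Of 42 other symbols listed for the pathway (ubiquitin supply, shuttling, deubiquitination, assembly and transcriptional control), 34 were in the table. Some listed symbols are alternative names of the same gene, such as ufd1 for ufd1l. At 50 µM, 4 of the 34 were called higher and 0 lower: adrm1, sem1, ufd1l and sqstm1. The shares of all genes were 1.45% higher and 1.02% lower. The list was chosen with earlier results of these data known, so the count beside these shares is a description and not a test. Ufd1l encodes a cofactor of the Vcp segregase, which pulls ubiquitinated proteins out of complexes, and its pools overlapped: 616, 520.2, 721 and 638 in the control and 823, 716, 806 and 689.8 at 50 µM. It rose by 21.6% (Log2FC 0.25, adjusted p-value = 0.0410), and the call was lost without control replicate 1 (0.0887), 2 (0.229) or 4 (0.0563) and without 50 µM replicate 1 (0.166) or 3 (0.138). The call on ufd1l was also lost without the mean-variance trend of limma (0.0552) and with only the 2 groups compared (0.296). The same held with adjustment over all 7 concentrations (0.121) and without the set of 3 outlying pools (0.113). Vcp itself had a Log2FC of 0.06.

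Sqstm1, the autophagy receptor p62 that carries ubiquitinated cargo to the lysosome and a known target of Nrf2 in mammals, had the largest difference of the pathway list at 50 µM. Its normalized counts were 454, 365, 449.5 and 429 in the control and 707, 595, 638 and 888 at 50 µM, without overlap. It rose by 66.5% at 50 µM (Log2FC 0.62, SE 0.083, adjusted p-value = 7.11e-06), by 40.3% at 8 µM (adjusted p-value = 0.0102) and by 35.2% at 20 µM (adjusted p-value = 0.0246).

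Among the genes of ubiquitin supply and activation, uba1 was called in the trend. The polyubiquitin genes ubb and ubc had a Log2FC of 0.08 and -0.10 at 50 µM and were not called.

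Uba1, the enzyme that activates ubiquitin, fell along the range, by 0.021 log2 units per step (adjusted p-value = 0.0292). Its normalized counts were 2466, 2569, 2777 and 2514 in the control and 2245, 2466, 2374 and 2157 at 50 µM, where the groups met at 2466. The call was lost without control replicate 3 (0.0874), 20 µM replicate 1 (0.0534) or 50 µM replicate 4 (0.0684).

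The genes of the transcription factor Nrf1 were measured with few reads. Nfe2l1a had 4.93, 2.86, 2.82 and 5.92 normalized counts in the control and 0, 1.93, 3.97 and 0 at 50 µM (adjusted p-value = 0.229). Nfe2l1b had 2.96, 7.62, 7.52 and 1.97 in the control and 6.01, 4.82, 5.95 and 2.03 at 50 µM (adjusted p-value = 0.988). The assembly factor gene pomp, the deubiquitinase genes usp14 and uchl5 and the protease gene ddi2, which activates Nrf1 in mammals, had a Log2FC between -0.01 and 0.09 at 50 µM and were not called.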

How the data were processed

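Whole larvae were sequenced as mRNA in 32 pools. The submitters' processing notes name STAR, HTSeq, DESeq2 and the build GRCz11. The authors deposited log2-scale values, their DESeq2-normalized counts after a variance-stabilizing transformation, with genes at 0 reads in many pools removed by the authors. Versions are not given in the sources used here. Undone in closed form, it gave reads that were whole within 0.01 for 100.0% of values once multiplied by the pool's size factor, with size factors from 0.940 to 1.08. The normalized counts printed are these reads over the size factor.

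GeneIDs were matched to RefSeq symbols (GRCz12tu) for 21030 of 22686 genes. As that build differs from the authors' build, no coordinates are given. The ribosomal list was taken by symbol, and kinase and binding protein genes with like symbols were dropped from it.

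Since the authors deposited log2 values, limma 3.58.1 in R 4.3.3 was fitted to the deposited values of all genes, with 1 mean per group and moderation along a mean-variance trend. P-values were adjusted by Benjamini-Hochberg in each concentration. The trend was a slope on the rank of the 8 groups. Exact permutation tests were two-sided, 4 pools against 4. Python 3.11.15, NumPy 2.4.6, pandas 2.3.3, SciPy 1.17.1 and matplotlib 3.10.9 were used for the rest. The fit was tested on simulated data.

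Values in every control and 50 µM pool were given for members called at any concentration or in the trend, for catalytic subunits, and for the member of each role with the smallest p at 50 µM. Psmc5, psma2b and the 20 µM values of psme4b were added after their values were seen. Pathway genes were named if called, except 1 item that is not reported here, and nfe2l1a and nfe2l1b in any case, with a few others by value. The members and lists were chosen with earlier results of these data known.

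Alternatives covered the scale and pseudocount, limma-voom, a minimum mean normalized count of 10, the trend, 2-group fits, a replicate block, other scalings, adjustment over 7 concentrations, an adjusted p-value under 0.01, 3 pools left out together and each pool left out in turn. The spread between pools, which includes counting error, sets the errors given, and genes with fewer reads are less precise.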

Additional observations from a re-analysis of the deposited data

Results flagged for a closer look

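In 48 groups of 4 pools, made of 8 groups for the summed proteasome level and of the control and 50 µM groups for 20 named genes, 1 held a pool far from the other 3 by Dixon's criterion at 95% confidence. Chance alone flags about 1 in 20 groups. The pool was the highest 50 µM pool for adrm1, the ubiquitin receptor of the cap, with a normalized count of 1382 against 1238 to 1262 in the others. Its gap made up 0.831 of the range of the group. The other 3 pools also lay above all control pools, so the separation of adrm1 from the control did not rest on it.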

How the results depend on the processing

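The number of proteasome genes called higher at 50 µM (1) became 2 with a minimum mean normalized count of 10 and with total-read scaling, in both cases psmc2 and psmc5. It became 0 without the mean-variance trend, with only the 2 groups compared, with adjustment over all 7 concentrations, at an adjusted p-value under 0.01, and without the set of 3 outlying pools. Leaving out 1 pool gave 0 to 2 genes: 0 without control replicate 1 or 2 or 50 µM replicate 1, 3 or 4, and 2 without 0.512 µM replicate 3 or 4, 8 µM replicate 4 or 50 µM replicate 2. At 3.2 µM the count of 0 became 1 (psma2b) with adjustment over all 7 concentrations and 0 to 1 with 1 pool left out. In the trend the count of 1 became 2 (psmc2 and psmd8) with total-read scaling, 0 at an adjusted p-value under 0.01, and 0 to 2 with 1 pool left out, with 2 without 0.205 µM replicate 3. Apart from the stricter threshold, which removes calls by itself, the cause of these changes was not tested.

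The other counts of calls kept their value of 0. The median Log2FC of the 51 genes with 1 pool left out lay between 0.04 and 0.11 at 50 µM, between -0.06 and 0.01 at 20 µM, between 0.05 and 0.11 at 8 µM, and between 0.02 and 0.11 at the lower concentrations. The sign of psmb7 at 50 µM turned to -0.00431 with total-read scaling and to -0.0150 without the 3 pools, and that of psmb10 to -0.0287 without the 3 pools. With 1 pool left out, psmb5 ran from -0.0743 to 0.0378, psmb7 from -0.0148 to 0.0564 and psmb10 from -0.0411 to 0.111. These were among the smallest differences named.

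With the replicate number as a block, 1 gene was called higher at 50 µM and 1 in the trend, as without it, so the block changed no count of calls. The numbers do not pair the pools: the 112 same-numbered pairs of pools had a median correlation of deviations of 0.0022, from -0.51 to 0.33, and 5 of 32 pools correlated best with a pool of their own number. Levels per length of coding sequence were not run, because no lengths were used here.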
